A study of Mus musculus with 66 samples.

Results

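Hox genes encode homeodomain transcription factors that give cells along the head-to-tail axis of the embryo their positional identity. In mouse lung RNA, 33 Hox genes were measured among 18193 genes in all. They were chosen by name alone: every gene whose probe set carried a single symbol made of Hoxa, Hoxb, Hoxc or Hoxd and a number, with antisense transcripts left out and the probe set of highest mean over all arrays standing for a gene. The 33 genes comprised 9 Hoxa, 9 Hoxb, 7 Hoxc and 8 Hoxd genes. Hox genes without such a probe set were not analysed here.

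Whole lungs of mice that lack the transcription factor Nrf2 (Nrf2-/-, KO) and of wild-type mice (Nrf2+/+, WT) were homogenised, and total RNA was hybridised to Affymetrix arrays. Each genotype was sampled at 11 ages, 4 in the embryo (E13.5, then E15.5, E17.5, and last E18.5) and 7 from birth on (PND0 to PND4 daily, PND14 and PND42), with 3 samples in each of the 22 groups and 66 arrays in all. A sample was 1 lung, except at E13.5, where 2 to 3 lungs were combined. Dams were time mated, all mice were fed AIN-76A diet, and the strain and the deleted allele are unstated in the labels used here. The labels name no tissue or promoter to which the deletion was limited.

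In the mouse the Hox genes lie in clusters on different chromosomes, Hoxa on chromosome 6, Hoxb on chromosome 11, Hoxc on chromosome 15 and Hoxd on chromosome 2. Genes with low numbers sit at the end of a cluster that is switched on early and far forward in the body, and genes with high numbers are switched on later and further back. Retinoic acid, made in the mesoderm, induces the low-numbered genes through retinoic acid receptors, Polycomb complexes keep silent genes shut, trithorax complexes keep active genes open, and the Pbx, Meis and Pknox proteins bind DNA together with Hox proteins. The lung buds from the foregut at the level of the low- and middle-numbered genes, and its mesenchyme expresses them: in mice, Hoxa5 is required for normal trachea and lung formation, and Hoxb5 takes part in airway branching.

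The promoters of 1 gene from each cluster are shown because the half-site bound by retinoic acid receptors and other nuclear receptors, AGGTCA, occurs in each of them. They run 5′ to 3′ from 250 bases before to 50 bases after the RefSeq gene start (GRCm38.p6), and capitals mark AGGTCA or, where the half-site lies on the other strand, TGACCT.
Hoxa5, chr6:52204538-52204837, minus strand: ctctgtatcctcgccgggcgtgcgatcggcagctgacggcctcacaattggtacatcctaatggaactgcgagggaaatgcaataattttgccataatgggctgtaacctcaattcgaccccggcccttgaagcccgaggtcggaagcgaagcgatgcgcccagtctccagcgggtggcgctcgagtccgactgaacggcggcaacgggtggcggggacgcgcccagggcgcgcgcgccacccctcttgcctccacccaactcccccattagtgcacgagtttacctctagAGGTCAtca
Hoxb4, chr11:96318017-96318316, plus strand: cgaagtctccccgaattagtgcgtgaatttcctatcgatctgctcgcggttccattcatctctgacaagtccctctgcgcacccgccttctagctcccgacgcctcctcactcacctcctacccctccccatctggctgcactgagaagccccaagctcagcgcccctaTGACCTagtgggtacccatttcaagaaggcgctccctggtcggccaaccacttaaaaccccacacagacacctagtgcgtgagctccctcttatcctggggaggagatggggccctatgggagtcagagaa
Hoxc4, chr15:103034145-103034444, plus strand: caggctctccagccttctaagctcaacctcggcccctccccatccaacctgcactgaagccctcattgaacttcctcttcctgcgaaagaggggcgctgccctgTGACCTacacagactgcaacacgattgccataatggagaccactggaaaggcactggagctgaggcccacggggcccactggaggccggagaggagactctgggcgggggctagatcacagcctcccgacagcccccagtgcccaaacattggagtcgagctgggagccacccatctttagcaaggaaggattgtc
Hoxd8, chr2:74704365-74704664, plus strand: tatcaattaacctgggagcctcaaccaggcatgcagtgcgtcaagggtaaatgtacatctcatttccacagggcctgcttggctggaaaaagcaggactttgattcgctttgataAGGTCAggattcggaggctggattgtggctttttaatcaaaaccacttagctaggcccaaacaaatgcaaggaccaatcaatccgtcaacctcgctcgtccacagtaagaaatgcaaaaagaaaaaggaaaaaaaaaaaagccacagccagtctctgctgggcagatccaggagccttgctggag
A promoter sequence was at hand for 19 of the 33 genes, and 6 of the 19 (Hoxa5, Hoxb4, Hoxc4, Hoxd3, Hoxd8 and Hoxd10) held the half-site on either strand, against 16.3% of 32851 promoters of the same length. The core of the antioxidant response element to which Nrf2 binds, TGACNNNGC on either strand, occurred in 1 of the 19 promoters, that of Hoxd10, and in 12.4% of all promoters. The Hox-Pbx motif TGATNNAT on either strand occurred in 3 of the 19 promoters (Hoxa2, Hoxb1 and Hoxd11) and in 8.85% of all. The printed promoters held 29 CG dinucleotides in Hoxa5, 14 in Hoxb4, 9 in Hoxc4 and 6 in Hoxd8. The median was 20 over the 19 Hox promoters and 7 over all promoters. These matches describe letters in a window and no binding was measured.

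Levels below are log2 of the quantile-normalised signal plus 16, and a difference of 1 is a change of 2-fold on that scale. The arrays were in 2 sets: the 24 arrays of PND1 to PND4 had deposited trimmed means of 171.7 to 307.1, and the other 42 arrays had 500.0. Genotypes shared a set at every age, but a step between PND0 and PND1 or between PND4 and PND14 cannot be told apart from the set. Nfe2l2, the gene of Nrf2, had levels of 4.41 to 8.26 (median 5.35) in the 33 KO libraries and 10.49 to 12.25 (median 11.63) in the 33 WT libraries at its brightest probe set. On a scale of 2481 genes other than Hox genes, on which WT E15.5 is at 0 and WT PND0 at 1, KO libraries labelled E17.5 averaged 0.75 ± 0.04 and KO libraries labelled E18.5 averaged 0.44 ± 0.07, while WT E17.5 averaged 0.57 ± 0.06 and WT E18.5 averaged 0.79 ± 0.09 (SD, n = 3 each). The KO order at those ages therefore ran against the labels, and E17.5 and E18.5 values of KO lungs are read with that in view. A further library, WT E13.5 replicate 2, stood apart in cartilage, skeletal muscle and liver marker genes, as described with the Hoxc genes.

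Array background was set at the 95th percentile of 81 olfactory, vomeronasal and trace amine receptor probe sets within each array, and it averaged 5.71 to 6.46 over the groups. Of the 33 Hox genes, 22 exceeded it in at least 1 group and 10 exceeded it in all 22 groups: Hoxa2, Hoxa3, Hoxa4, Hoxa5, Hoxb2, Hoxb3, Hoxb4, Hoxb5, Hoxb6 and Hoxd8. Detection followed gene number. Of the 7 genes numbered 1 to 3, 6 were above background somewhere and 4 in all groups. Of the 12 genes numbered 4 to 8, 11 were above background somewhere and 6 in all groups. Of the 14 genes numbered 9 to 13, 5 were above background somewhere and 0 in all groups. The 11 genes that never exceeded background were Hoxa10, Hoxa13, Hoxb1, Hoxb7, Hoxb13, Hoxc10, Hoxc13, Hoxd10, Hoxd11, Hoxd12 and Hoxd13, which include the genes used in the distal limb and urogenital tract. Their values set only an upper bound on the signal.

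At E13.5 more of the family was above background than at later ages, 15 genes in KO lungs and 21 in WT lungs. In the other 20 groups 10 to 13 genes were above background. The WT list at E13.5 comprised 6 Hoxa, 6 Hoxb, 5 Hoxc and 4 Hoxd genes, and the KO list comprised 5 Hoxa, 5 Hoxb, 3 Hoxc and 2 Hoxd genes. Over WT replicates 1 and 3 alone the WT count at E13.5 was 17, with 4 Hoxa, 6 Hoxb, 5 Hoxc and 2 Hoxd genes, as Hoxa7, Hoxa9, Hoxd1 and Hoxd9 were above background only with replicate 2.

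Hoxa5, the trachea and lung gene, varied within a narrow range. Its group means spanned 10.61 to 11.39 in KO lungs and 10.57 to 11.34 in WT lungs. In KO lungs the levels were 10.58, 10.96 and 10.99 at PND42 against 11.12, 11.56 and 11.50 at E13.5. In WT lungs they were 10.83, 10.52 and 11.06 at PND42 against 11.40, 11.19 and 11.44 at E13.5. All PND42 libraries lay below all E13.5 libraries within each genotype. Hoxa5 was 1.47-fold lower at PND42 than at E13.5 in KO lungs and 1.45-fold lower in WT lungs, and both differences passed the test (limma, Benjamini-Hochberg adjusted p under 0.05 over 45037 probe sets). The KO call was lost without E13.5 replicate 2 or 3 or PND42 replicate 1, and the WT call without E13.5 replicate 1 or 3 or PND42 replicate 2. A further Hoxa5 probe set, also above background in all groups, gave -0.48 log2 in KO lungs (adjusted p = 0.129) and -0.39 in WT lungs (adjusted p = 0.235) and did not pass the test. Over all ages the age term of Hoxa5 passed the test in KO lungs and did not in WT lungs (adjusted p = 0.0602).

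Hoxb2 to Hoxb6, neighbours in a single cluster, were all lower at PND42 than at E13.5. Hoxb3, which with Hoxa3 patterns the pharyngeal region of the mouse, had levels of 8.91, 9.07 and 9.09 at PND42 against 10.41, 11.17 and 11.24 at E13.5 in KO lungs. In WT lungs it had 8.72, 8.62 and 8.26 at PND42 against 11.05, 10.46 and 10.79 at E13.5. The ages did not overlap in either genotype. At this brightest probe set the fall was 3.77-fold in KO lungs and 4.69-fold in WT lungs. A further Hoxb3 probe set, also above background in all groups, changed by -1.07 log2 in KO lungs and -2.17 log2 in WT lungs. Both changes passed the test, and the brightest probe set had -1.91 and -2.23 log2 in the same order. Hoxb6, a gene of lateral plate mesoderm in mice, had 7.78, 7.95 and 7.87 at PND42 against 9.26, 9.56 and 9.96 at E13.5 in KO lungs, and 7.24, 7.65 and 7.70 at PND42 against 9.26, 9.04 and 9.08 at E13.5 in WT lungs. It fell 3.32-fold in KO lungs and 3.03-fold in WT lungs. Hoxb4, known as a regulator of blood stem cells, fell 2.67-fold in KO lungs and 2.49-fold in WT lungs, and Hoxb2, which acts in the hindbrain, fell 2.14-fold in KO lungs and 2.25-fold in WT lungs. Hoxb5, the branching gene, fell 1.87-fold in KO lungs and 1.61-fold in WT lungs, where the call was lost without E13.5 replicate 1 or 3 or PND42 replicate 2. In WT E13.5 replicate 2 Hoxb5 was at 9.20, below the 10.75 and 10.57 of replicates 1 and 3. Without that library the WT fall of Hoxb5 was 2.26-fold (limma adjusted p = 4.563e-05).

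Between E15.5 and E17.5 Hoxb2, Hoxb3, Hoxb4, Hoxb5 and Hoxb6 fell in both genotypes. In KO lungs the changes were -0.61, -1.27, -0.60, -1.64 and -1.75 log2 for Hoxb2 to Hoxb6 in that order. In WT lungs they were -0.45, -0.72, -0.80, -1.21 and -1.52 log2 in the same order. The KO step ends at the group labelled E17.5 that sat late on the maturity scale, and the part of that in its sizes was not tested. Among all 33 Hox genes 7 were lower in this step in KO lungs (15.9% of all genes were lower) and 5 in WT lungs (12.5% of all genes were lower). The 2 further KO genes were Hoxa3 (-0.50) and Hoxa4 (-1.17).

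After birth these genes took different courses. Hoxb3 had group means of 9.08 at PND0, 9.49 at PND1, 10.05 at PND4, 9.77 at PND14 and 9.02 at PND42 in KO lungs, and of 9.84 at PND0, 9.42 at PND1, 10.26 at PND4, 9.12 at PND14 and 8.54 at PND42 in WT lungs. Between PND4 and PND14 Hoxb2 fell by 1.24 log2 in both genotypes, a step that crosses the array sets. The WT PND14 means of Hoxb3 and Hoxb2 include replicate 2, which was low in both. Its deposited Hoxb2 signal was 367, against 750 and 699 in replicates 1 and 3, and its part in the WT fall was not tested. Over PND1 to PND4 the Hoxb4 means stayed at 7.90 to 8.14 in KO lungs and 7.62 to 8.16 in WT lungs, and over the same ages the Hoxb2 means were 9.28 to 10.29 in KO lungs and 9.15 to 10.17 in WT lungs.

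Like Hoxb2 (10.29 in KO lungs and 10.17 in WT lungs at PND4), Hoxa4, which in mice shapes the neck vertebrae, had its highest group mean at PND4 in both genotypes. PND4 and E13.5 lie in different array sets, so for both genes that ranking cannot be told apart from the set. In KO lungs the Hoxa4 mean was 8.01 at E13.5, 6.5 at E17.5, 7.27 at E18.5, 6.75 at PND0, 8.58 at PND1, 8.87 at PND4, 7.84 at PND14 and 7.89 at PND42. In WT lungs it was 8.52 at E13.5, 7.0 at E17.5, 6.47 at E18.5, 6.87 at PND0, 7.75 at PND1, 8.65 at PND4, 7.68 at PND14 and 7.31 at PND42. The rise between PND0 and PND1 was 1.83 log2 in KO lungs and 0.88 log2 in WT lungs, and the change between PND4 and PND14 was -1.03 log2 in KO lungs and -0.98 log2 in WT lungs, and both steps cross the array sets. WT PND14 replicate 2 had a deposited Hoxa4 signal of 145, against 242 and 303 in replicates 1 and 3. Within the PND1 to PND4 set, WT lungs had 8.56, 8.81 and 8.59 at PND4 against 7.59, 7.84 and 7.82 at PND1, with no overlap.

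Hoxa2, a gene of hindbrain and branchial arch patterning, and Hoxa3, required for thymus and parathyroid in mice, were also lower at PND42 at their brightest probe sets. Hoxa2 had 7.51, 7.22 and 7.06 in KO lungs at PND42 against 8.26, 8.43 and 8.71 at E13.5, and 7.17, 7.38 and 7.23 in WT lungs at PND42 against 8.29, 8.67 and 8.22 at E13.5. The differences were 2.30-fold in KO lungs and 2.19-fold in WT lungs. Hoxa3 was 1.32-fold lower in KO lungs and 2.02-fold lower in WT lungs, and the difference between genotypes in that change did not pass the test (adjusted p = 0.0901). The KO call was lost without E13.5 replicate 3 or PND42 replicate 1. A further Hoxa3 probe set above background in all groups gave 0.41 log2 in KO lungs (adjusted p = 0.132) and -0.53 in WT lungs (adjusted p = 0.0465), so the KO direction differed between the probe sets.

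Hoxc4, Hoxc5 and Hoxc8 also fell between E13.5 and PND42, and their WT values at E13.5 depended on a single library. At E13.5 Hoxc4, which acts in neck vertebrae and in the oesophageal muscle of mice, had 7.94, 7.91 and 8.02 in KO lungs and 8.18, 10.39 and 8.39 in WT lungs. Hoxc5 had 7.17, 6.30 and 6.97 in KO lungs and 6.89, 10.29 and 6.77 in WT lungs. Hoxc8, a gene of the thoracic skeleton in mice, had 6.55, 6.56 and 5.78 in KO lungs and 6.52, 9.66 and 7.48 in WT lungs. WT replicate 2 was highest in each case, by 2.11, 3.46 and 2.65 log2 over the mean of the other 2 WT libraries for Hoxc4, Hoxc5 and Hoxc8. It was also high for Hoxd8 (7.03, 9.29 and 7.37 in the WT libraries), Hoxd9 (6.06, 7.78 and 5.05) and Hoxa7 (5.57, 8.13 and 6.17), and low for Hoxb5 (10.75, 9.20 and 10.57).

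That WT library held the highest cartilage markers of all 66 libraries. Its mean level over 8 cartilage genes was 10.4, with 8.9 and 8.1 in the other 2 WT libraries and 8.62, 7.91 and 8.63 in the KO libraries of E13.5. All 8 genes of the list were above background at E13.5 in WT lungs and 7 in KO lungs, where Matn1 was not. Its skeletal muscle mean was 11.1 and its liver mean 9.8. The library second highest in cartilage markers, KO E18.5 replicate 1 at 9.89, had Hoxc8 at 7.26 with 5.08 and 5.40 in the other 2 KO E18.5 libraries. The median of the cartilage mean over 66 libraries was 6.52. In whole-lung RNA, fewer cells of a type and less RNA of a gene per cell cannot be told apart, and the part of cartilage or muscle tissue in the Hoxc values was not tested.

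**Figure D1:**
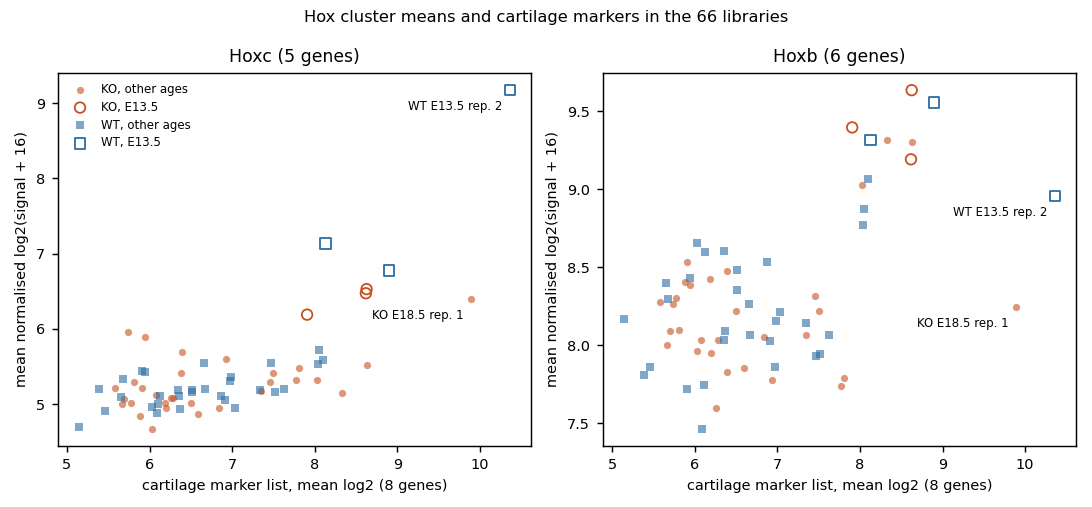
Mean level of 5 Hoxc genes and of 6 Hoxb genes (log2) against the mean level of 8 cartilage markers (log2) in 66 libraries, KO orange and WT blue, with E13.5 libraries as open symbols. The Hoxc mean is highest in WT E13.5 replicate 2 (9.17), where the cartilage mean is 10.4; the other WT E13.5 libraries have Hoxc means of 6.77 and 7.14 and the KO E13.5 libraries 6.47, 6.19 and 6.53.

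With all libraries, the fitted change of Hoxc4 between E13.5 and PND42 was -2.80 log2 in KO lungs and -3.42 in WT lungs, that of Hoxc5 was -2.18 in KO lungs and -3.52 in WT lungs, and that of Hoxc8 was -1.88 in KO lungs and -3.79 in WT lungs. At PND42 Hoxc4 had 4.28, 5.46 and 5.73 in KO lungs and 5.65, 6.20 and 4.84 in WT lungs, with 0 of 3 KO libraries and 1 of 3 WT libraries above background. No PND42 library of either genotype exceeded background for Hoxc5 or Hoxc8, so their falls are bounds. Measured against background, Hoxc4 was at least 3.61-fold, Hoxc5 at least 1.64-fold and Hoxc8 at least 1.14-fold lower in KO lungs, and Hoxc5 was at least 4.18-fold and Hoxc8 at least 3.91-fold lower in WT lungs. Without WT E13.5 replicate 2 the WT bounds were 1.88-fold for Hoxc5 and 2.12-fold for Hoxc8. The fitted WT changes without it were -2.72 log2 for Hoxc4, -2.36 log2 for Hoxc5 and -2.91 log2 for Hoxc8, all still past the test (adjusted p = 1.908e-07, 1.439e-06 and 1.428e-07). All 3 calls thus stood in WT lungs without that library. For Hoxc6 the WT change was -0.50 without that library (adjusted p = 0.392), for Hoxd1 -0.89 (adjusted p = 0.143) and for Hoxb1, never above background, -0.85 (adjusted p = 0.0756), so none of the 3 passed the test. The Hoxc6 call was also lost without WT PND42 replicate 1 or 3, and the Hoxb1 call without WT PND42 replicate 1 or 2.

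**Figure D2:**
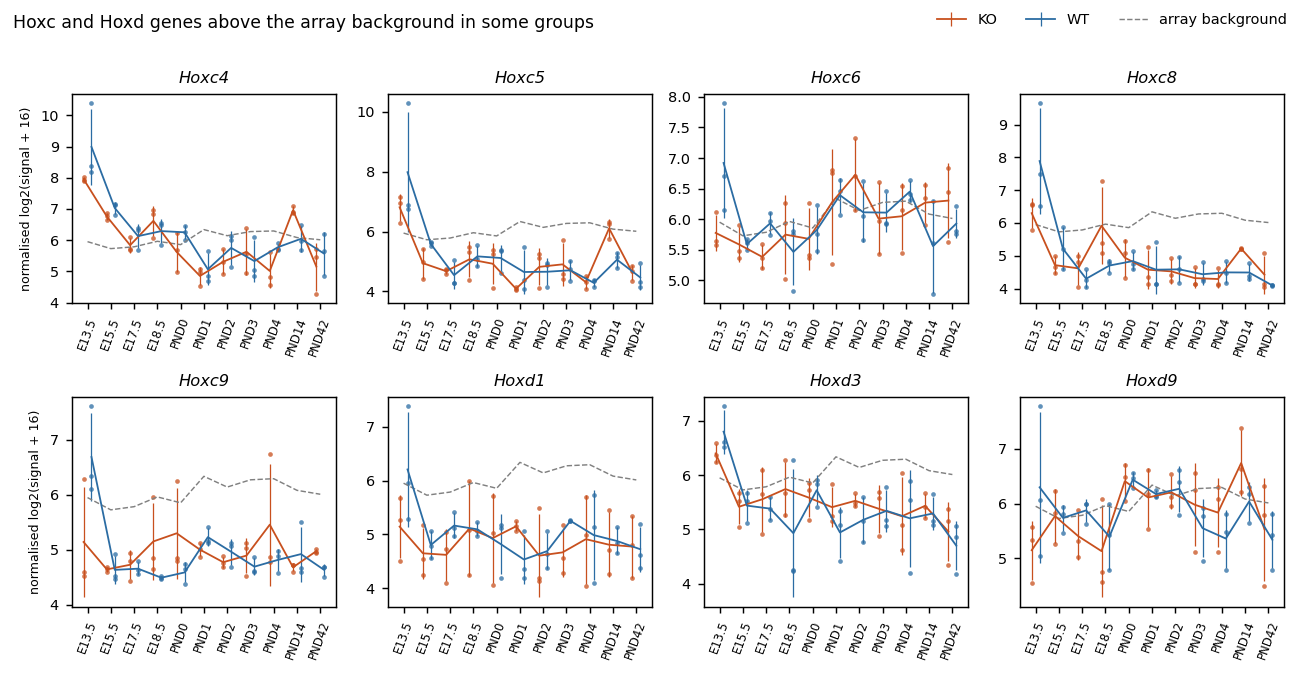
Levels (log2 of normalised signal plus 16) of Hoxc4, Hoxc5, Hoxc6, Hoxc8, Hoxc9, Hoxd1, Hoxd3 and Hoxd9 by age, KO (orange) left of WT (blue); points are samples, lines means, bars SD (n = 3), and the dashed line is array background. Most values after E15.5 lie near or under background, and the highest point of Hoxc4, Hoxc5 and Hoxc8 is WT E13.5 replicate 2 (10.39, 10.29 and 9.66).

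Hoxc4 was above background again in KO lungs at PND14. It had 6.88, 6.90 and 7.10 in KO lungs and 5.67, 5.97 and 6.49 in WT lungs at that age. No KO library exceeded background for Hoxc4 at PND4 or PND42, and the KO level at PND14 was at least 1.60-fold above that at PND4, a step that crosses the array sets, and PND42 was at least 1.81-fold lower than PND14. Hoxc5 had 5.75, 6.25 and 6.33 in KO lungs and 5.28, 4.77 and 5.14 in WT lungs at PND14, and both means lay under background. In the same 3 KO PND14 libraries the skeletal muscle list averaged 9.04, 10.4 and 11.4 and the oesophagus list 7.12, 9.88 and 10.3, and the part of those tissues in the Hoxc values was not tested. KO minus WT at PND14 did not pass the test for Hoxc4 or Hoxc5.

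Hoxd3, a gene of the first neck vertebra in mice, had 6.59, 6.37 and 6.25 in KO lungs and 6.61, 7.27 and 6.53 in WT lungs at E13.5, and at PND42, where none of its libraries exceeded background, it was at least 1.23-fold lower in KO lungs and at least 1.84-fold lower in WT lungs (1.57-fold without WT E13.5 replicate 2). Hoxd8, the only Hoxd gene above background in all groups, was 1.20-fold lower in KO lungs, which did not pass the test, and 3.22-fold lower in WT lungs, which did. Without WT E13.5 replicate 2 the WT difference of Hoxd8 was 1.99-fold (adjusted p = 0.0269).

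Across the family, 12 of 33 Hox genes (36.4%) were lower at PND42 than at E13.5 in KO lungs, where 26.1% of all genes were lower. In WT lungs 18 of 33 (54.5%) were lower, where 28.1% of all genes were lower. With all libraries, none was higher by limma's adjusted p in either genotype, against 27.8% of all genes in KO lungs and 25.6% in WT lungs. At unadjusted p under 0.05, 1 gene was higher in KO lungs and 0 in WT lungs. The median change was -0.17 log2 over the Hox genes and 0.06 over all genes in KO lungs, and -0.97 over the Hox genes and -0.06 over all genes in WT lungs. The 12 genes called in KO lungs were all called in WT lungs (Hoxa2, Hoxa3, Hoxa5, Hoxb2 to Hoxb6, Hoxc4, Hoxc5, Hoxc8 and Hoxd3). The 6 called in WT lungs and not in KO lungs were Hoxa4, Hoxb1, Hoxc6, Hoxc9, Hoxd1 and Hoxd8, of which Hoxb1 was never above background and Hoxd1 was so in WT replicate 2 alone at E13.5. Without WT E13.5 replicate 2, 15 were lower in WT lungs, and Hoxd11, never above background, was called higher. A call in 1 genotype is no test of a difference. By gene number, 5 of 7 genes numbered 1 to 3, 7 of 12 numbered 4 to 8 and 0 of 14 numbered 9 to 13 were lower in KO lungs, and 7 of 7, 10 of 12 and 1 of 14 in WT lungs. Only 5 of the 14 exceeded background in any group, so a fall could seldom be measured there and these counts follow detection. A further Hoxa9 probe set, above background in 2 groups, had fitted changes of -2.74 log2 in WT lungs (limma adjusted p = 1.0e-05) and -1.07 in KO lungs (0.0849).

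**Figure D3:**
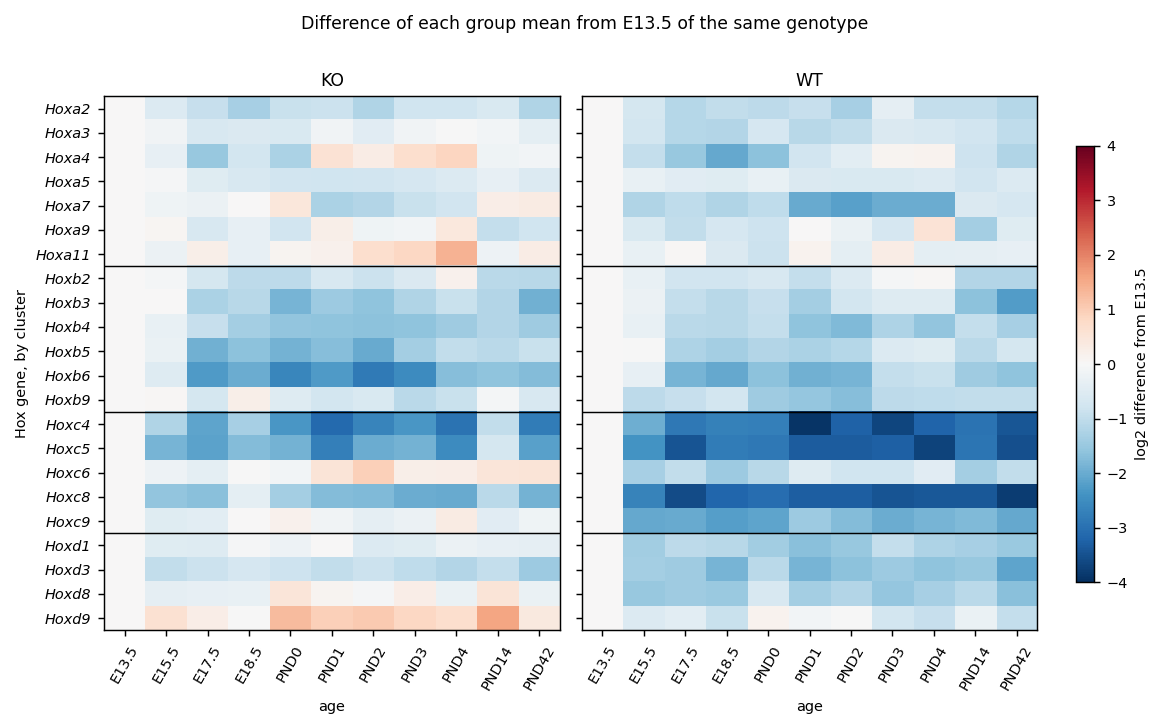
Fitted change from E13.5 (log2) at each later age for the 22 Hox genes above background in at least 1 group, KO in the left panel and WT in the right panel. With all libraries kept, Hoxc8 is at -1.88 and Hoxc5 at -2.18 in the KO panel at PND42, against -3.79 and -3.52 in the WT panel; at PND42 both genes were under background, so these sizes are not measured falls.

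Many Hox genes were already lower at E18.5, but their later courses differed. Hoxb5 changed from E13.5 by -1.64 log2 to E18.5 and -0.90 to PND42 in KO lungs, and by -1.35 and -0.69 in WT lungs. Hoxb3 at its brightest probe set changed by -1.10 and -1.91 in KO lungs, and by -1.11 and -2.23 in WT lungs, in the same order. The further Hoxb3 probe set changed by -0.45 and -1.07 in KO lungs, and by -1.88 and -2.17 in WT lungs. KO lungs labelled E18.5 sat at 0.44 on the maturity scale, below those labelled E17.5. From E13.5 to E18.5, 11 Hox genes (33.3%) were lower in KO lungs, where 14.6% of all genes were lower, and 16 (48.5%) were lower in WT lungs, where 25.2% of all genes were lower. None was higher by limma's adjusted p in either genotype, where 14.6% of all genes were higher in KO lungs and 20.1% in WT lungs, and 0 were higher at unadjusted p under 0.05. Of these genes 10 were called in both genotypes, Hoxa5 was called in KO lungs alone, and Hoxa7, Hoxc6, Hoxc8, Hoxc9, Hoxd3 and Hoxd8 were called in WT lungs alone. In the first step, E13.5 to E15.5, both KO calls and 5 of the 10 WT calls were Hoxc genes. In KO lungs 2 Hox genes were lower, Hoxc5 (at least 2.15-fold) and Hoxc8 (at least 1.502-fold), where 1.47% of all genes were lower. In WT lungs 10 were lower (Hoxa3, Hoxa4, Hoxc4, Hoxc5, Hoxc6, Hoxc8, Hoxc9, Hoxd1, Hoxd3 and Hoxd8), where 4.42% of all genes were lower. Without WT E13.5 replicate 2 the WT count from E13.5 to E18.5 was 13, with Hoxa7, Hoxc6 and Hoxd8 lost. Over all ages, the age term passed the test for 15 Hox genes in KO lungs and 16 in WT lungs, with 77.4% of all genes in KO lungs and 74% in WT lungs.

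The second question of the design was whether lungs without Nrf2 differ from WT lungs. Averaged over the 11 ages, 1 of 33 Hox genes (3.03%) passed the test, where 11.3% of all genes did, and 3 did so at unadjusted p under 0.05. The median KO minus WT was 0.02 log2 over the Hox genes and 0.01 over all genes. The gene was Hoxa3, higher in KO lungs by 0.22 ± 0.045 log2 (SE, adjusted p = 0.000523). Its other 3 probe sets gave 0.13, -0.15 and -0.08 and did not pass the test. With the mean of its probe sets the value was 0.03, and without the ages PND1 to PND4 it was 0.14 (adjusted p = 0.202), so the call was made at 1 of its 4 probe sets and was lost without those ages.

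At single ages 8 of 363 gene and age pairs (2.2%) passed the test, where 5.88% of all gene and age pairs did, and 44 did so at unadjusted p under 0.05. No share of all genes is given at the unadjusted threshold, so counts at it are not set against the other genes. Of the 8, 3 were higher and 5 lower in KO lungs, and they belonged to 6 genes. No Hox gene was called at 4 ages by limma's adjusted p (E15.5, E17.5, PND4 and PND42), with 3, 2, 3 and 4 genes at unadjusted p under 0.05 and 0.143%, 1.64%, 0.643% and 4.79% of all genes called.

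Hoxb3, read at its brightest probe set, gave 3 of the 8 pairs and did not keep 1 direction. At PND0 it had 8.93, 9.27 and 9.05 in KO lungs and 9.79, 9.72 and 10.004 in WT lungs, a difference of -0.75 ± 0.19 log2 (SE, adjusted p = 0.00475), at an age at which 14.5% of all genes were called. At PND2 it had 9.0, 9.50 and 9.45 in KO lungs and 9.91, 10.08 and 10.11 in WT lungs (-0.71 log2, limma adjusted p = 0.0157, 5.95% of all genes called). At PND14 it had 9.52, 9.86 and 9.93 in KO lungs and 9.57, 8.36 and 9.44 in WT lungs (0.65 log2, adjusted p = 0.0251, 9.35% of all genes called). The genotypes were apart at PND0 and PND2 and overlapped at PND14, where the call was lost without WT replicate 2 and without KO replicate 2 or 3. The PND2 call was lost without WT replicate 2 or 3 and without KO replicate 1. WT PND14 replicate 2 had the highest thymus and lymphoid mean of its group (11.0, with 6 of 6 markers above background in WT lungs and 2 of 6 in KO lungs at PND14), and Hoxa5 at 9.59 and Hoxb5 at 8.01, and its part in the result was not tested. The PND0 call held with each library left out in turn. Averaged over ages, KO minus WT was -0.03 log2 at the brightest Hoxb3 probe set and 0.19 at the further one, and neither passed the test.

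Hoxb6 and Hoxb2 were lower in KO lungs at PND3, where 10.8% of all genes were called. Hoxb6 had 7.74, 6.29 and 7.21 in KO lungs and 8.43, 8.10 and 8.0 in WT lungs, a difference of -1.10 ± 0.26 log2 (SE, adjusted p = 0.00399). The KO library with 6.29 held the highest skeletal muscle mean of all 66 libraries (12.9, with 8 of 8 markers above background in KO lungs and 4 of 8 in WT lungs at PND3), its part was not tested, and the call was lost without it. Hoxb2 had 9.84, 9.40 and 9.42 in KO lungs and 10.04, 10.09 and 10.05 in WT lungs (-0.51 ± 0.16 log2, adjusted p = 0.0388). All KO values lay below all WT values for both genes, and the Hoxb2 call was lost without any 1 of 5 of the 6 libraries.

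Hoxa3 at PND1 had 8.92, 8.68 and 8.82 in KO lungs and 7.88, 8.24 and 8.25 in WT lungs, higher in KO lungs by 0.69 ± 0.15 log2 (SE, adjusted p = 0.00462, 2.53% of all genes called). Hoxa4 at E18.5 had 7.33, 6.95 and 7.53 in KO lungs and 6.49, 6.21 and 6.72 in WT lungs, higher by 0.80 ± 0.24 log2 (adjusted p = 0.0249, 12.4% of all genes called). Both genes were without overlap between genotypes, and the call was lost without WT replicate 1 for Hoxa3 and without WT replicate 1 or 2 or KO replicate 1 or 3 for Hoxa4. The KO libraries labelled E18.5 lie at 0.44 on the maturity scale and the WT ones at 0.79, and set against WT E17.5 the same KO libraries differed in Hoxa4 by 0.27 (adjusted p = 0.868). The part of that order in the Hoxa4 value was not tested further.

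Hoxc9, a gene of the thoracic and lumbar region, was the only Hox gene called at E13.5, where 1.95% of all genes were called. At unadjusted p under 0.05, 9 Hox genes were lower in KO lungs and none higher, and no share of all genes is given at that threshold. WT replicate 2, high in several Hoxc and Hoxd genes, entered that count. Hoxc9 had 4.60, 4.53 and 6.30 in KO lungs and 6.12, 7.61 and 6.34 in WT lungs, a difference of -1.54 ± 0.37 log2 (SE, adjusted p = 0.0172). The KO mean lay under background, with 1 of 3 KO libraries and 3 of 3 WT libraries above it, so the size of the difference is a fitted value and was not measured on the KO side. The genotypes overlapped, and the call was lost without WT replicate 2 and without KO replicate 1 or 2. The lung epithelium list averaged 10.6, 9.6 and 10.2 in the KO libraries of E13.5 and 9.0, 8.6 and 9.2 in the WT libraries, so the 2 groups differed in tissue markers, whose part in the Hoxc9 value was not tested.

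**Figure D4:**
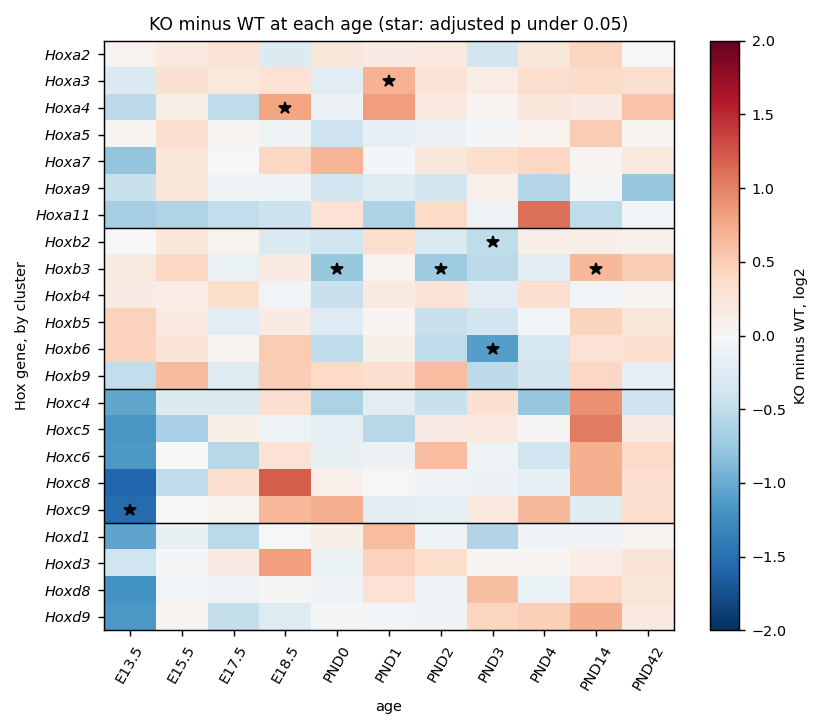
KO minus WT (log2) for each Hox gene above background in at least 1 group at each age, with stars for the 8 pairs that passed the test. The starred values run from -1.54 (Hoxc9, E13.5) to 0.80 (Hoxa4, E18.5), and the 3 Hoxb3 stars have both signs.

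The size of KO minus WT depended on age for 6 of 33 Hox genes (18.2%), where it did for 35.1% of all genes. The change from E13.5 to PND42 differed between genotypes for 2 Hox genes (6.06%), where it did for 4.51% of all genes. At unadjusted p under 0.05 it differed for 8 Hox genes, all with the more positive change in KO lungs. No share of all genes is given at that threshold, and WT E13.5 replicate 2, high in several Hoxc and Hoxd genes, entered that count. Hoxc9 was called, but its mean was above background in WT lungs at E13.5 alone, so no size is given for its KO change. In WT lungs it was at least 1.70-fold lower at PND42 (1.24-fold without WT E13.5 replicate 2), and the call of the difference was lost without any 1 of 5 libraries. Hoxa4 changed by -0.12 in KO lungs and by -1.21 in WT lungs, a difference of 1.09, and the call was lost in 43 of 66 leave-one-out fits.

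Nfe2l2 lies near the Hoxd cluster on chromosome 2, with 3 protein-coding genes between them (Mtx2, Gm50595 and Hnrnpa3). None of the 8 Hoxd genes passed the test in the average over ages by limma, where 11.3% of all genes did. None did so at unadjusted p under 0.05, and the differences lay between -0.16 and 0.16 log2. Of the 8, 4 exceeded background in at least 1 group and only Hoxd8 in all groups. For the others a difference could seldom be measured. Mtx2, a mitochondrial outer membrane protein gene, differed by 0.04 log2 (adjusted p = 0.32).

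The proteins and enzymes that work with Hox genes were read from lists chosen with earlier results known. Each list is to be read against all genes, of which 27.8% were higher and 26.1% lower at PND42 than at E13.5 in KO lungs, and 25.6% higher and 28.1% lower in WT lungs, with median changes of 0.06 log2 in KO lungs and -0.06 in WT lungs. Of 8 measured Hox cofactors, 1 was higher and 5 lower at PND42 than at E13.5 in KO lungs, and 1 higher and 6 lower in WT lungs. Their median change was -0.50 log2 in KO lungs and -0.81 in WT lungs. Meis1, which binds DNA with Hox proteins, changed by -1.22 log2 in KO lungs and -1.26 in WT lungs, Meis2 by -1.34 and -1.95, and Pbx3 by -0.66 and -0.97, in the same order, while Pknox2 rose by 1.07 and 0.72. In the average over ages Pbx2 was higher in KO lungs by 0.13 log2.

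Of 16 retinoic acid genes, 4 were higher and 7 lower at PND42 in KO lungs and 4 higher and 6 lower in WT lungs, with median changes of -0.11 log2 in KO lungs and -0.56 in WT lungs, where 27.8% and 25.6% of all genes were higher and 26.1% and 28.1% lower in the same order. Aldh1a1, an enzyme that makes retinoic acid, rose by 3.75 log2 in KO lungs and 4.80 in WT lungs, while Aldh1a2, its counterpart in the early mesoderm, changed by -0.69 in KO lungs and -1.27 in WT lungs. The receptor gene Rarb changed by -1.68 in KO lungs and -1.36 in WT lungs. The retinoid-binding protein gene Crabp1 changed by -4.19 in KO lungs and -5.26 in WT lungs, and Crabp2, under background in all PND42 libraries, was at least 8.91-fold lower in KO lungs and at least 21.6-fold lower in WT lungs. Averaged over ages, Rara (0.21) and Rxra (0.17) were higher and Aldh1a1 (-0.48) lower in KO lungs.

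Of 14 Polycomb genes, 2 were higher and 7 lower at PND42 in KO lungs and 3 higher and 7 lower in WT lungs, with medians of -0.18 log2 in KO lungs and -0.35 in WT lungs (over all genes 0.06 and -0.06, with 26.1% and 28.1% lower). Ezh2, which methylates histone H3 in dividing cells, changed by -2.71 log2 in KO lungs and -2.76 in WT lungs, and Ezh1, its counterpart in resting cells, rose by 2.06 and 1.95 in the same order. Cbx7 rose by 2.64 in KO lungs and by a fitted 3.28 in WT lungs, where its E13.5 mean lay under background, and Cbx2 changed by -1.07 and -1.94. Of 8 trithorax genes, 1 was higher and 6 lower in KO lungs, and 5 were lower in WT lungs, with medians of -0.67 log2 in KO lungs and -0.81 in WT lungs. Of 7 Cdx and related upstream genes, 2 were lower in KO lungs, and 1 was higher and 2 were lower in WT lungs, with medians of -0.01 log2 in KO lungs and 0.08 in WT lungs.

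Of 15 transcription factor genes of lung mesenchyme, 2 were higher and 9 lower at PND42 in KO lungs and 4 higher and 9 lower in WT lungs, with medians of -1.20 log2 in KO lungs and -1.94 in WT lungs (over all genes 0.06 and -0.06, with 26.1% and 28.1% lower). Gli2 and Gli3, which relay hedgehog signals, changed by -3.08 and -3.12 log2 in KO lungs and by -2.95 and -2.52 in WT lungs. Twist1, a mesenchymal factor that no PND42 library held above background, was at least 3.25-fold lower in KO lungs and at least 9.09-fold lower in WT lungs. Foxf1, a foregut mesenchyme factor, rose by 1.05 in KO lungs and 1.72 in WT lungs, and Tbx3 rose by 0.61 and 0.77 in the same order. Tbx2 and Foxf2 rose in WT lungs, by 0.58 and 0.80, and had 0.50 and 0.34 in KO lungs, which did not pass the test.

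Genes flanking the Hox clusters took both directions between E13.5 and PND42. Skap2, beside Hoxa, changed by 1.56 log2 in KO lungs and 1.46 in WT lungs, and Hibadh, at the other end of the cluster, by 0.74 and 0.58. Cbx5, beside Hoxc, changed by -1.20 and -1.74, and Lnpk, beside Hoxd, by -1.55 and -0.95. Of 15 flanking genes other than Nfe2l2, 1 was called in the average KO minus WT, Calcoco1 beside Hoxc, at 0.37 log2 (adjusted p = 1.18e-06).

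The courses of the 10 genes above background in all groups were alike to different degrees over the 22 group means. Pearson's r for their 45 pairs ran from -0.11 (Hoxb4 with Hoxa4) to 0.95, with a median of 0.61. The group means share arrays, normalisation and array sets, so r is a description. Of 12844 genes measured above background widely enough, those most like Hoxa5 over the 22 means were Tcf24 (r = 0.881), Gm15050 (0.875), Pbx3 (0.869), Cdh6 (0.861) and Pdhx (0.860).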

How the data were processed

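Lung RNA was measured on 66 arrays, in 22 groups of 3 (KO and WT at 11 ages), grouped by genotype, age and replicate number in the labels. The deposited values were intensities on a linear scale. The authors made them with GCOS, as the submitters' processing notes list it, while its version, algorithm and scaling target and any genome build were not given there. The number of arrays limits the precision, and since litters are not named, p-values measure only the spread between these samples.

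Of 45101 probe sets, 64 controls were left out. The platform annotation gave 1 symbol to 34945, several to 932 and none to 9160, and a probe set with several was not named. The brightest probe set by mean over 66 arrays stood for a gene (18193 genes). Intensities were quantile normalised, taken as log2(value + 16), and fitted with limma 3.58.1 in R 4.3.3, 1 mean per group, empirical Bayes with a trend (44 residual and 6.69 prior degrees of freedom). P-values were adjusted by Benjamini-Hochberg over 45037 probe sets, with a threshold of 0.05. Folds on this scale understate changes of dim genes. "At least" folds set the dimmer group at array background.

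Named were the Hox genes by the rule above (those never above background counted only, with exceptions named), Nfe2l2 and the genes between it and Hoxd, the flanking genes of each cluster, the 5 genes most like Hoxa5 and list members that passed the test. Members and lists were chosen with earlier results of these data known. Same-numbered samples of the genotypes did not deviate together (1 of 33 pair correlations over 0.1, median 0.003), so numbers were not used as pairs. On simulated data 82.5% of genes with an average difference of 0.5 log2 were recovered, 92% of those with 2 log2 at E18.5 and 89.5% of those with 2 log2 between E13.5 and PND42 in WT lungs. Alternatives covered pseudocount, background trend, normalisation, array weights, level filter, probe-set choice, array sets, ages and each library left out. Promoters came from RefSeq (GRCm38.p6) and figures from matplotlib 3.10.9.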

Additional observations from a re-analysis of the deposited data

Results flagged for a closer look

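The difference between KO and WT lungs depended on age (limma's F test of the genotype and age interaction, adjusted over all probe sets) for Hoxa3 (adjusted p = 0.0106), Hoxa4 (adjusted p = 0.00785), Hoxb2 (adjusted p = 0.0237), Hoxb3 (adjusted p = 8.31e-05), Hoxb6 (adjusted p = 0.00557) and Hoxc9 (adjusted p = 0.0275). These were 18.2% of the Hox genes, where 35.1% of all genes passed. Hoxb3 was lower in KO lungs at PND0 and PND2 and higher at PND14, and its other probe set also passed this test. So did a further Hoxa5 probe set (adjusted p = 0.0457), while the brightest Hoxa5 probe set did not (adjusted p = 0.315). The further Hoxa4 probe set (adjusted p = 0.767) and the further Hoxa3 probe sets (adjusted p = 0.101, 0.127 and 0.619) did not pass it. Of these, the Hoxa3 probe set with 0.101 exceeded background in 22 groups and the Hoxa4 probe set in 5. The change between E13.5 and PND42 differed between KO and WT lungs for Hoxa4 (adjusted p = 0.0485) and Hoxc9 (adjusted p = 0.0251). These were 6.06% of the Hox genes, where it differed for 4.51% of all genes. The Hoxa4 call was lost in 43 of 66 leave-one-out fits. Hoxc9 exceeded array background as a group mean in 1 group, WT E13.5, and WT E13.5 replicate 2, the library highest in cartilage markers, held its highest value.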

How the results depend on the processing

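The 31 gene values summarised here (changes between E13.5 and PND42, and the Hoxa3 average) kept their direction in all alternatives run (0 reversed). Of 2046 fits of them with a library left out, 18 lost their call, and of 361 under other alternatives, 12 did. The 8 single-age calls were lost in 20 of 528 such fits, and the 2 calls of a genotype difference in the change to PND42 in 48 of 132. Most of these fits leave out a library that the call does not compare, so the totals understate how often a call is lost. All 20 single-age losses came with 1 of the 6 libraries of the age compared left out. All 18 losses named above came with an E13.5 or PND42 library left out. Counts moved as follows. The average KO minus WT count of 1 Hox gene became 2 with array medians subtracted, 2 with array weights, 2 without E13.5 and 0 without PND1 to PND4. The age count of 15 in KO lungs became 23 with medians subtracted and 9 with the level filter, which keeps 10 Hox genes, and that of 16 in WT lungs became 25 and 10. With the level filter the WT counts at PND42 and at E18.5 against E13.5 (18 and 16) became 10 each. Subtracting medians moves the median of all genes, for E18.5 minus E13.5 to -0.23 in KO lungs and -0.26 in WT lungs, where quantile normalisation gave -0.03 in KO lungs and -0.07 in WT lungs. The 2 genes whose change to PND42 differed between genotypes became 1 with pseudocount 1, without the variance trend, with array weights, with the mean of probe sets, without PND1 to PND4, without E17.5 and E18.5 and, added after the data were seen, without the 2 libraries highest in cartilage markers. The 8 single-age pairs became 15 with array weights, 2 without PND1 to PND4 and 4 with only the 6 arrays of an age. The 6 genes with an age-dependent genotype difference became 3, and the 30 calls over WT age steps 17, without PND1 to PND4. With 1 library left out, the ranges were 1 to 2 (average), 6 to 14 (single ages), 5 to 7 (genotype by age), 14 to 16 and 15 to 18 (age in KO and WT lungs), 10 to 14 and 15 to 19 (PND42 in KO and WT lungs), 0 to 3 (difference of that change), 8 to 11 and 13 to 19 (E18.5 in KO and WT lungs) and 25 to 35 (WT steps). With the replicate block, whose numbers did not pair the samples, the counts were 1, 9, 6, 16, 17, 13, 18, 2, 11, 17 and 29 in the order of those ranges. Crossing the E17.5 and E18.5 labels of KO lungs gave 7 single-age pairs. Array background limits the 11 genes that never exceeded it and all falls to background.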

Other observations

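Hoxb5os, an antisense transcript beside Hoxb5 that the naming rule left out, had a mean level of 9.03. It was lower in KO lungs by 0.30 log2 in the average over ages (adjusted p = 0.0287), where Hoxb5 itself was not called. It changed between E13.5 and PND42 by -1.52 in KO lungs and -1.21 in WT lungs. A probe set shared by Hoxb8 and Hoxb7 changed by -1.78 in KO lungs and -1.86 in WT lungs. The probe sets shared by Hoxd4 and Hoxd3 changed by -1.44 and -1.79 in KO lungs and by -1.41 and -1.81 in WT lungs.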
